A study of Homo sapiens with 6 samples.

Results

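The interferon-stimulated genes are a set of 42 named human genes, and all 42 were found by symbol among the 58395 genes of the count tables. They are a list of named genes known for their induction by interferon, with no threshold on a measured value. RNA had been sequenced from 6 clonal HEK293 lines, an established line of human embryonic kidney origin. The 3 control lines, numbered 2, 8 and 9, expressed GST-3F, and are called GST 2, GST 8 and GST 9. The 3 others, numbered 4, 11 and 12, expressed NOCT ∆(2-15)-3F, a nocturnin lacking residues 2 to 15, and are called NOCT 4, NOCT 11 and NOCT 12. GST is glutathione S-transferase, and nocturnin is an enzyme that removes a phosphate from NADP+ and NADPH. The labels call each line clonal, and each gave 1 library. They do not say how the clones were derived from one another, so the lines are taken as separate clones of a group. None of the labels names an interferon, a virus or any other stimulus, so the values below are levels in cells cultured for 3 days without one.

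Interferons are secreted proteins that cells release when they sense foreign nucleic acid. Type I interferons bind a receptor made of IFNAR1 and IFNAR2, whose kinases JAK1 and TYK2 activate STAT proteins. One of these, STAT2, joins IRF9 in a complex that binds a promoter element called the interferon-stimulated response element, and the genes it switches on sense viral RNA, block translation, restrict entry and budding, or tag proteins with ISG15. Many of them are also transcribed at a low level without interferon.

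The promoter element is shown for 9 members, because the levels of these genes are what the results below turn on. The motif searched was GAAA, then 2 bases of any kind, then GAAA, or on the other strand TTTC, 2 bases and TTTC, in the 250 bases before and 50 bases after each RefSeq start site on GRCh38.p14. Each line gives 30 bases on the gene's own strand, 5′ to 3′, with every base that belongs to a match in capitals. The first 5 belong to the 6 members that differed by at least 4-fold between single lines, and the sixth, CMPK2, has no match in this window.
SAMD9, chr7:93118096-93118125, minus strand: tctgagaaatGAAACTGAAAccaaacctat
PARP14, chr3:122680800-122680829, plus strand: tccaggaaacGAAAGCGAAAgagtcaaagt
OAS3, chr12:112938321-112938350, plus strand: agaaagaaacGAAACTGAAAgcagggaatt
IFIH1, chr2:162318824-162318853, minus strand: gagaattcgcTTTCCTTTTCTGTTTCccgc
IFI44L, chr1:78620274-78620303, plus strand: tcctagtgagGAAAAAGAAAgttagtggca
IFIT1, chr10:89392497-89392526, plus strand: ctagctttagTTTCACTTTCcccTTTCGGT
ISG15, chr1:1013374-1013403, plus strand: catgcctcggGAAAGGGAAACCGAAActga
IFI44, chr1:78649761-78649790, plus strand: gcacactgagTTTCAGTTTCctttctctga
BST2, chr19:17405741-17405770, minus strand: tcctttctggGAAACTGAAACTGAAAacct
The IFIH1, ISG15 and BST2 windows hold overlapping matches, and the second IFIT1 match runs past the end of its window.

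In the GENCODE 29 annotation the windows of SAMD9, OAS3, IFIH1, IFIT1, IFI44 and BST2 lie upstream of their gene. The PARP14 window lies in an exon of an earlier-starting PARP14 model, and those of IFI44L and ISG15 lie in introns of such models. The IFIH1 window also overlaps an exon of GCA, the gene on its other side, and the BST2 window overlaps exons of BISPR and MVB12A. RefSeq promoters were found for 33 members, some with more than 1 start site. The element was in 26 of their 44 promoters (59.1%), against 3.57% of all 35116 promoters in the table. A second motif, TTC then 3 bases of any kind then GAA, which reads the same on both strands and is the form that STAT dimers bind, was in 10 of the 44 (22.7%), against 7.66% of all promoters.

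Levels ranged widely both with and without the element. They are compared between genes in TPM, the abundance of a transcript set relative to its length and to the library. The 22 members with the element had mean levels of 0.178 to 42 TPM with a median of 2.92 TPM. The 11 without it had mean levels of 0.00693 to 28.4 TPM with a median of 1.82 TPM. SAMD9, ISG15 and IFI44, all with a match printed above, averaged 9.69, 14.9 and 0.289 TPM. CMPK2, IRF9 and STAT2, with no match in this window, averaged 1.53, 1.57 and 28.4 TPM. These values are a description, and no binding was measured.

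The libraries held 19729745 to 24422406 counts in genes. The control construct had 46 to 88 counts in the GST lines and 0 or 1 in the NOCT lines, and the NOCT construct had 46 to 82 counts in the NOCT lines and 3 to 7 in the GST lines (exact two-sided permutation test, p = 0.1 for each, the smallest that 3 lines against 3 can give). Of 9 genes known to be expressed in HEK293 cells, none was silent, 8 passed the filter on low counts and 5 of those (62.5%) had an unadjusted edgeR p under 0.05, against 13.9% of all tested genes, 4 of them higher in the NOCT lines. The 4 were LHX1, INA, KRT8 and KRT18, with log2 fold changes of 0.63 to 1.11. PAX2 was lower, at 4.75 ± 0.923 CPM in the GST lines and 1.08 ± 0.296 CPM in the NOCT lines (SD, n = 3; edgeR adjusted p = 0.0567). The 10 leukocyte markers summed to 10 to 31 counts per library, with 6 silent, and the 4 red cell markers to 0 to 2 counts with all 4 silent. The 4 fibroblast and endothelium markers summed to 148 to 631 counts, with 1 silent. COL1A1, the only 1 of these tested, averaged 10.1 ± 0.741 CPM in the GST lines and 17.2 ± 8.52 CPM in the NOCT lines (edgeR adjusted p = 0.402). VWF had 36 counts in NOCT 4 and 0 to 7 in the other lines. The part of the HEK293 marker differences in the values below was not tested. Across the tested genes, the log2 CPM of NOCT 12 had a Pearson correlation of 0.974 and 0.979 with NOCT 4 and NOCT 11 and of 0.980 to 0.984 with the 3 GST lines, so NOCT 12 lay nearer to the other group than to its own. NOCT 4 and NOCT 11 correlated at 0.990. The members' median log2 fold change, their counts by edgeR p and the 4-fold differences between lines are given also without NOCT 12. Other counts and sums below, such as those of non-overlapping groups, ranks and pathway genes, are given with all 6 lines only. The labels call the lines biological replicates of a group, so the p-values measure the spread between clones.

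The members were mostly low but present. A gene was called silent with at most 3 counts in every library, low when it had more but failed the filter on low counts, and tested otherwise. By this rule 2 members were silent, 9 were low and 31 were tested. The silent pair were OAS1, with 0 counts in each GST line and 1, 1 and 2 counts in NOCT 4, 11 and 12, and XAF1, a pro-apoptotic factor, with a single count in NOCT 11 and in NOCT 12. A count of 0 allows up to 3 counts in a library, so these are limits of detection and cover counting error only. In each line 34 to 37 of the 42 members had more than 3 counts.

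The highest mean level belonged to EIF2AK2, the kinase PKR, which shuts down translation when it binds double-stranded RNA, at 42 ± 5.55 TPM (SD, n = 6 lines). STAT2 followed at 28.4 ± 4.39 TPM, HERC5 at 27.8 ± 5.02, IFIT5 at 21.0 ± 1.81, ISG15 at 14.9 ± 2.24, IFITM2 at 13.7 ± 3.55 and USP18 at 13.5 ± 2.17 TPM. STAT2 and HERC5 did not differ beyond their spread, nor did ISG15, IFITM2 and USP18. MT-RNR2, which is ribosomal RNA of mitochondria, made up 43% to 47.7% of the TPM of each line, which lowers every other TPM value by a like factor. EIF2AK2 alone made up 32.5% of the members' summed CPM. CPM is the count relative to the size of the library, scaled between libraries by TMM factors, and is used below to compare lines.

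**Figure D1:**
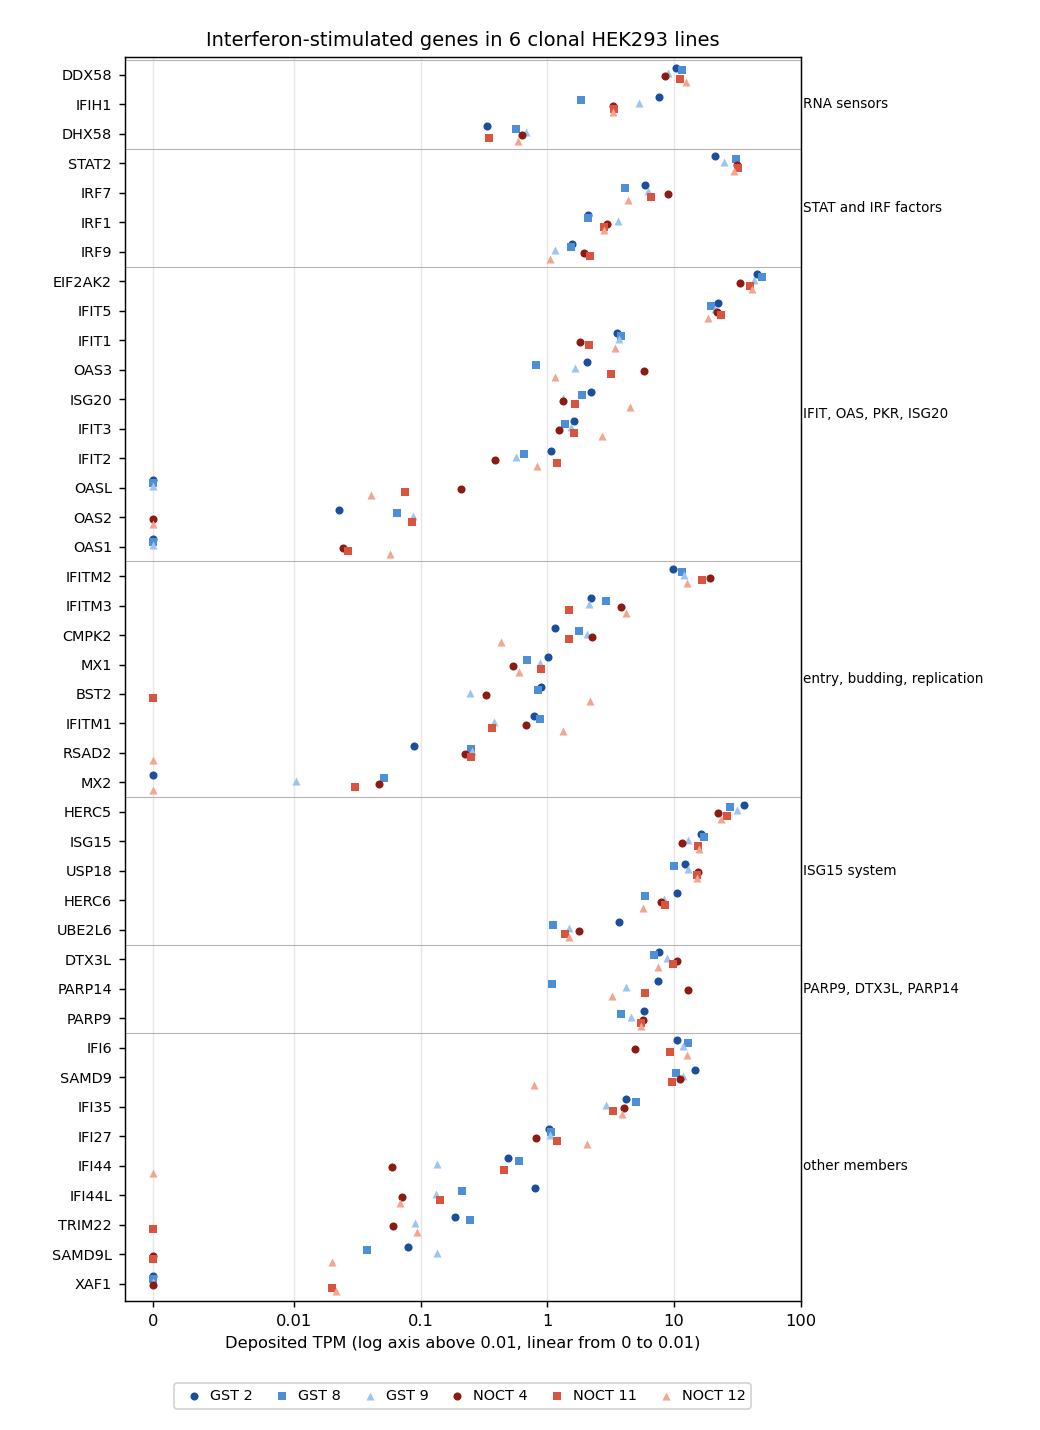
Deposited TPM of the 42 members in each of the 6 lines, grouped by role, on an axis that is logarithmic above 0.01 and linear from 0 to 0.01. Blue symbols are GST lines and red symbols NOCT lines; EIF2AK2, STAT2 and HERC5 lie highest, while OAS1, OASL and XAF1 are listed at 0 in every GST line.

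Summed over all members the levels of the 2 groups differed by little more than their spread. The summed CPM of the members was 509 ± 45.2 in the GST lines and 459 ± 15.0 in the NOCT lines (SD, n = 3), and without EIF2AK2 it was 332 ± 45.2 and 321 ± 25.3. Among the 31 tested members 14 had a higher and 17 a lower mean in the NOCT lines. Their median log2 fold change, NOCT over GST, was -0.02, and that of all 17261 tested genes was 0.0046. Without NOCT 12 the members' median was -0.19 and that of all tested genes -0.0061. No member passed an adjusted p of 0.05 in edgeR's quasi-likelihood test, where 0.0579% of all tested genes did, and the smallest adjusted p of a member was 0.218.

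At an unadjusted p under 0.05 there were 5 members (16.1%), against 13.9% of all tested genes. EIF2AK2, HERC5, IFIT1 and IFI44L were lower in the NOCT lines, which is 12.9% of the members against 6.52% of all tested genes. IFITM2 was higher, which is 3.23% against 7.38%. The groups did not overlap for 5 members. HERC5, EIF2AK2 and IFIT1 were lower in every NOCT line than in every GST line (9.68% of the members, against 9.54% of all tested genes), and IFITM2 and USP18 were higher in every NOCT line (6.45% against 10.5%). DESeq2 called none of the members at an adjusted p under 0.05, against 3.41% of the genes to which it gave one. It had 6 members (19.4%, against 13.5% of all genes) at an unadjusted p under 0.05. limma voom called none, against 0.0927%, and had 4 (12.9%, against 14.3%). Without GST 8 the edgeR count at an unadjusted p under 0.05 stayed at 5 members (16.1%, against 10.4% of all genes tested). Leaving out any other line moved the count. Without GST 2 it fell to 1 member (3.23%), while the share of all genes tested was 13.2%, close to the 13.9% with all lines. The background moved further without each of the others. The count was 3 (9.68%, against 8.31%) without GST 9 and 2 (6.45%, against 10.1%) without NOCT 4. It was 3 (9.68%, against 10.6%) without NOCT 11 and 7 (22.6%, against 23.2%) without NOCT 12. With no filter on low counts edgeR called 2 members, HERC5 and IFI44L (4.76%, against 2.57% of all genes), and without NOCT 12 it called 1, IFIT1 (3.23%, against 5.42%).

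**Figure D2:**
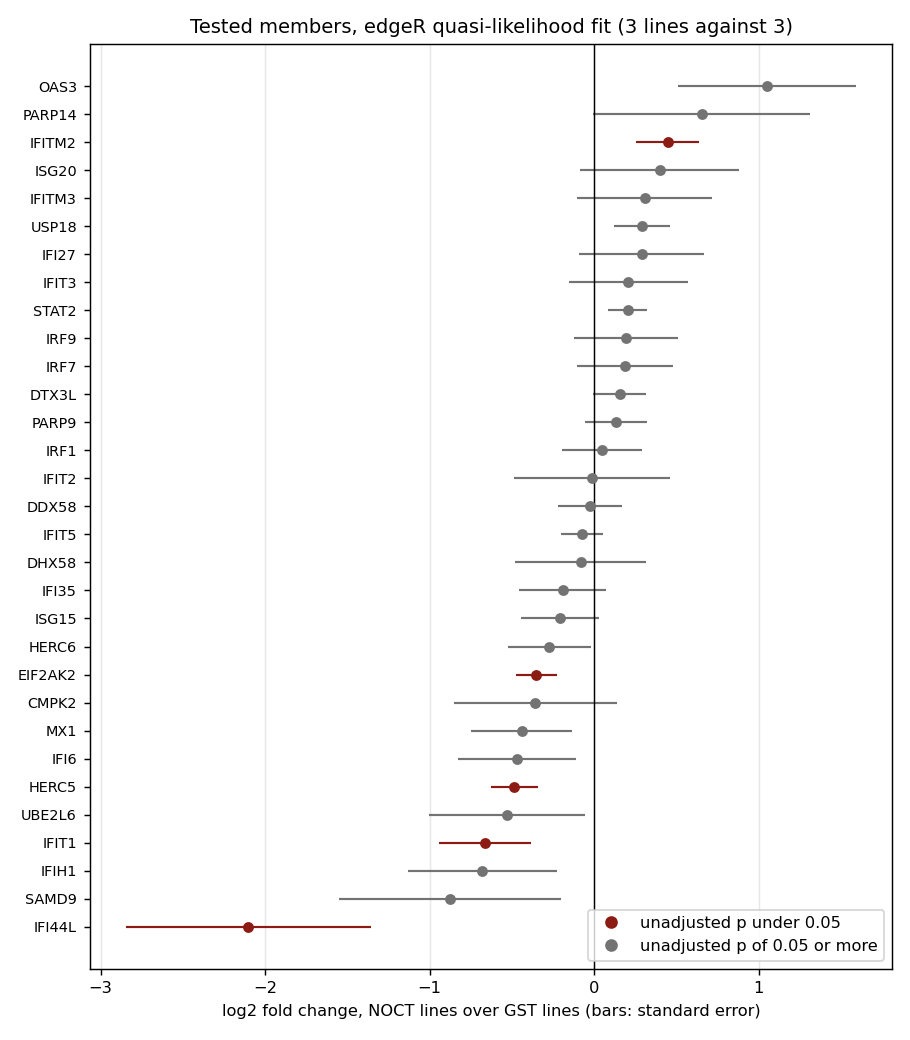
Log2 fold change of the 31 tested members, NOCT lines over GST lines, with bars for the standard error from edgeR's quasi-likelihood fit (3 lines against 3). Red points mark the 5 members with an unadjusted p under 0.05, and the values run from -2.10 for IFI44L to 1.05 for OAS3.

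Cytosolic RNA sensors come first in the pathway. DDX58, better known as RIG-I, binds RNA with a triphosphate end, and had 16.9, 17.3 and 13.9 CPM in GST 2, 8 and 9 and 12.0, 16.3 and 19.2 CPM in NOCT 4, 11 and 12. The groups overlapped, with a log2 fold change of -0.02 ± 0.19 (SE), whose sign depended on the scaling. IFIH1, or MDA5, which binds long double-stranded RNA, had 12.9, 2.88 and 8.64 CPM in the GST lines and 4.79, 5.15 and 5.26 CPM in the NOCT lines. Its 3 GST lines thus lay on both sides of the NOCT lines, which were close to each other. The third sensor, DHX58 or LGP2, had 9 to 20 counts per line and overlapping groups. None of the 3 sensors had an unadjusted p under 0.05.

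The transcription factors of the response were present in every line. STAT2 had 48.1, 64.6 and 54.4 CPM in GST 2, 8 and 9 and 61.8, 66.1 and 64.6 CPM in NOCT 4, 11 and 12, with GST 2 lowest. IRF9, its DNA-binding partner, had 2.21, 1.99 and 1.57 CPM against 2.39, 2.78 and 1.40 CPM. Of the exonic bases of IRF9, 48.4% overlap another gene on the same strand, AL136295.5, so its counts can be incomplete. IRF7, which drives transcription of interferon alpha genes, had 5.75, 3.71 and 5.89 CPM against 7.58, 5.82 and 4.01 CPM. IRF1, a factor induced strongly by interferon gamma, had 6.12, 5.66 and 10.1 CPM against 7.5, 7.35 and 7.72 CPM, so its GST lines spread more widely than its NOCT lines. The log2 fold changes of these 4 genes were 0.05 to 0.20, the groups overlapped for each, and none had an unadjusted p under 0.05.

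Among the genes that act on RNA and translation, PKR and IFIT1 were lower in the NOCT lines and OAS3 was split within them. EIF2AK2 (chr2:37099210-37157065, minus strand, GRCh38) had 181, 183 and 166 CPM in GST 2, 8 and 9 and 115, 144 and 156 CPM in NOCT 4, 11 and 12. All 3 NOCT lines lay below all 3 GST lines, and NOCT 4 was lowest. The log2 fold change was -0.35 ± 0.12 (SE; edgeR adjusted p = 0.268). In NOCT 4 the median of up to 50 tested genes on each side of EIF2AK2 also lay 0.38 below the mean of the 6 lines on the log2 scale, written as -0.38, beside -0.44 for EIF2AK2 itself. With an offset for the neighbouring genes in each line the log2 fold change was -0.22 (edgeR adjusted p = 0.211).

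IFIT1 (chr10:89392546-89406486, plus strand), which binds RNA whose cap lacks the host's ribose methylation, had 6.06, 6.03 and 6.14 CPM in the GST lines and 2.71, 3.31 and 5.51 CPM in the NOCT lines. NOCT 12 lay close to the GST lines and the other 2 NOCT lines well below them. The log2 fold change was -0.66 ± 0.28 (SE; edgeR adjusted p = 0.343). Without NOCT 12 it was -1.02 with an adjusted p of 0.0357, in a fit that called 970 genes in all. Its neighbours in the same gene cluster on chromosome 10 gave other patterns. IFIT2 had 1.63, 0.928 and 0.835 CPM in the GST lines against 0.510, 1.66 and 1.2 CPM in the NOCT lines, and IFIT3 had 1.58, 1.25 and 1.47 CPM against 1.06, 1.43 and 2.51 CPM. IFIT5, the most abundant of the family, had 33.2, 26.9 and 30.3 CPM against 28.3, 31.5 and 26.1 CPM, a highest line only 1.27 times the lowest. This was the smallest such ratio among the 31 tested members. The groups overlapped for IFIT2, IFIT3 and IFIT5, whose log2 fold changes of -0.02, 0.21 and -0.07 were each smaller than their standard error. Those of IFIT2 and IFIT5 turned positive when libraries were scaled by their spike-in totals.

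The oligoadenylate synthetases make the small RNA that activates RNase L, and of the cluster of 3 on chromosome 12 only OAS3 passed the filter. OAS3 (chr12:112938352-112973249, plus strand) had 6.27, 2.32 and 4.91 CPM in the GST lines and 15.5, 8.91 and 3.36 CPM in the NOCT lines. NOCT 4 and NOCT 11 lay above every GST line and NOCT 12 among them, and the log2 fold change was 1.05 ± 0.54 (SE; edgeR adjusted p = 0.431), or 0.45 without NOCT 4. On either side of it OAS1 had 0 to 2 counts and OAS2 0 to 4 counts per line, also in NOCT 4. OASL, which lies apart on the same chromosome, had 0 counts in each GST line and 6, 2 and 1 counts in NOCT 4, 11 and 12. ISG20, an exonuclease, had 6.12, 4.73 and 3.49 CPM against 3.18, 4.08 and 11.7 CPM, with NOCT 12 alone high.

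Of the genes that act on virus entry, budding and nucleotide supply, 4 were tested and 4 were low. IFITM2 (chr11:307631-315272, plus strand), which hinders fusion of viruses with cell membranes, had 5.64, 6.17 and 6.63 CPM in the GST lines and 9.62, 8.60 and 6.92 CPM in the NOCT lines. All 3 NOCT lines lay above the GST lines, NOCT 12 by little. The log2 fold change was 0.45 ± 0.19 (SE; edgeR adjusted p = 0.347). IFITM3 had 1.11, 1.34 and 1.03 CPM against 1.65, 0.672 and 2.01 CPM, and IFITM1 had 3 to 10 counts per line. The 3 IFITM genes share 32% to 35.2% of their 50-base words with other genes, each other among them, and IFITM1 and IFITM2 overlap on the same strand, so reads between them can be lost or split.

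MX1, a dynamin-like GTPase that traps viral nucleocapsids, had 3.27, 2.04 and 2.70 CPM in the GST lines and 1.49, 2.60 and 1.8 CPM in the NOCT lines, with overlap. MX2 had 0 to 5 counts per line. BST2, or tetherin, which holds budding virus at the cell surface, had 7, 7 and 2 counts in the GST lines and 3, 0 and 17 counts in the NOCT lines. RSAD2, or viperin, which makes a chain-terminating nucleotide, had 3, 9 and 9 counts against 9, 9 and 0. CMPK2, a nucleotide kinase transcribed away from RSAD2 on chromosome 2, had 1.85, 2.64 and 3.19 CPM against 3.14, 2.15 and 0.652 CPM. Both genes of this pair were thus lowest in NOCT 12.

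ISG15 is a ubiquitin-like protein, and the members that attach and remove it were all tested. ISG15 itself had 5.75, 5.61 and 4.37 CPM in GST 2, 8 and 9 and 3.49, 4.88 and 5.26 CPM in NOCT 4, 11 and 12, with overlap. UBE2L6, its conjugating enzyme, had 3.00, 0.835 and 1.18 CPM against 1.26, 1.03 and 1.15 CPM, so GST 2 alone stood high. HERC5 (chr4:88457117-88506163, plus strand), its main ligase in human cells, had 63.1, 45.5 and 54.0 CPM in the GST lines and 34.1, 42.2 and 39.7 CPM in the NOCT lines. Every NOCT line lay below every GST line. The log2 fold change was -0.49 ± 0.14 (SE; edgeR adjusted p = 0.218), the smallest p of any member. The genes around HERC5 lay at 0.35 in GST 2, on the log2 scale relative to the mean of the lines, beside 0.47 for HERC5. With the offset for neighbouring genes its log2 fold change was -0.23 (edgeR adjusted p = 0.318).

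HERC6, next to HERC5 on chromosome 4, had 22.9, 11.7 and 17.5 CPM in the GST lines and 14.8, 16.7 and 11.5 CPM in the NOCT lines. It was highest in GST 2, as HERC5 was, but its groups overlapped. Its log2 fold change was -0.27, and -0.0037 with the offset for neighbouring genes. USP18, which removes ISG15 and also restrains the interferon receptor, had 9.59, 7.33 and 9.92 CPM against 10.6, 10.9 and 11.4 CPM. Its NOCT lines all lay above its GST lines, and the log2 fold change of 0.29 ± 0.17 (SE) had an edgeR adjusted p of 0.487. The genes around USP18 had medians of -0.20 to -0.10 in the GST lines and 0.10 to 0.16 in the NOCT lines on the log2 scale, and with the offset for neighbouring genes its log2 fold change was 0.0233 (adjusted p = 0.963). USP18 shares 23.4% of its 50-base words with other genes, USP41 among them. Of the 5 members of this system 1 had a higher and 4 a lower mean in the NOCT lines.

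PARP9 and DTX3L encode an ADP-ribosyltransferase and a ubiquitin ligase that work as a complex, and lie head to head on chromosome 3 next to PARP14. PARP9 had 19.3, 11.8 and 14.7 CPM in the GST lines and 16.4, 16.4 and 17.3 CPM in the NOCT lines, and DTX3L had 16.7, 14.0 and 18.4 CPM against 19.8, 19.4 and 15.4 CPM. PARP14 (chr3:122680618-122730840, plus strand), a further ADP-ribosyltransferase, had 29.3, 3.94 and 15.7 CPM against 43.4, 21.0 and 12.0 CPM. Its highest line had 11.0 times the CPM of its lowest, whereas the same ratio was 1.64 for PARP9 and 1.42 for DTX3L. The groups overlapped for all 3 genes.

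Of the remaining members, IFI44L and SAMD9 differed most between lines. IFI44L (chr1:78619922-78646145, plus strand) had 3.06, 0.742 and 0.491 CPM in the GST lines and 0.236, 0.493 and 0.251 CPM in the NOCT lines. GST 2 alone stood high, and the groups overlapped. The log2 fold change was -2.10 ± 0.74 (SE; edgeR adjusted p = 0.270), and without GST 2 it was -0.91 (adjusted p = 0.501). IFI44, which lies beside it, had 7, 9 and 2 counts in the GST lines and 1, 7 and 0 counts in the NOCT lines.

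IFI6, a small protein of cell membranes, had 3.37, 3.85 and 3.68 CPM in the GST lines and 1.37, 2.69 and 3.86 CPM in the NOCT lines, with NOCT 4 alone low. IFI27 had 1.58, 1.53 and 1.57 CPM against 1.10, 1.66 and 3.01 CPM, so its 3 GST lines were nearly equal and NOCT 12 was high. IFI35 had 3.06, 3.39 and 2.06 CPM against 2.55, 2.19 and 2.71 CPM. TRIM22, a ubiquitin ligase, had 8, 11 and 4 counts in the GST lines and 3, 0 and 4 counts in the NOCT lines. SAMD9L had 4, 2 and 7 counts against 0, 0 and 1, and was too low to be tested.

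SAMD9 (chr7:93099513-93118023, minus strand), a large protein that restrains translation in infected cells, showed the widest range. It had 703, 526 and 586 counts in GST 2, 8 and 9 and 624, 501 and 38 counts in NOCT 4, 11 and 12, or 37.1, 24.4, 28.8, 24.5, 22.4 and 1.91 CPM. NOCT 12 was thus low by itself, while NOCT 4 and NOCT 11 lay at the level of GST 8. The ratio of GST 2 to NOCT 12 was 19.5 (95% exact interval 14.0 to 27.7, counting error only). The median of the genes around SAMD9 was between -0.04 and 0.04 in each line on the log2 scale, and in NOCT 12 it was 0.04 beside -2.93 for SAMD9. Between the groups the log2 fold change of SAMD9 was -0.88 ± 0.67 (SE), with an edgeR adjusted p of 0.599, and -0.36 without NOCT 12 (adjusted p = 0.275).

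The members were next compared between single clones. A member was counted as clone-variable when its highest line had at least 4 times the CPM of its lowest and at least 20 counts. This held for 6 of the 31 tested members (19.4%), against 6.70% of all tested genes. After SAMD9, the ratio was 13 for IFI44L (95% exact interval 5.62 to 36.8), 11.0 for PARP14 (8.83 to 13.9), 6.69 for OAS3 (4.97 to 9.16), 4.90 for CMPK2 (2.67 to 9.68) and 4.49 for IFIH1 (3.39 to 6.04). Each clone gave 1 library, so these ratios have no replicate check within a clone. Without NOCT 12 the ratio was 1.66 for SAMD9 and 1.72 for CMPK2, and 4 members (12.9%) were clone-variable, against 4.89% of all tested genes. There were also 4 without GST 2 (against 5.72%) and without GST 8 (against 5.62%), which took IFI44L to 3.14 without GST 2, PARP14 to 3.62 without GST 8, and IFIH1 to 3 and 2.69. There were 5 (16.1%, against 5.2%) without NOCT 4, where OAS3 was at 3.84 and PARP14 at 7.44.

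**Figure D3:**
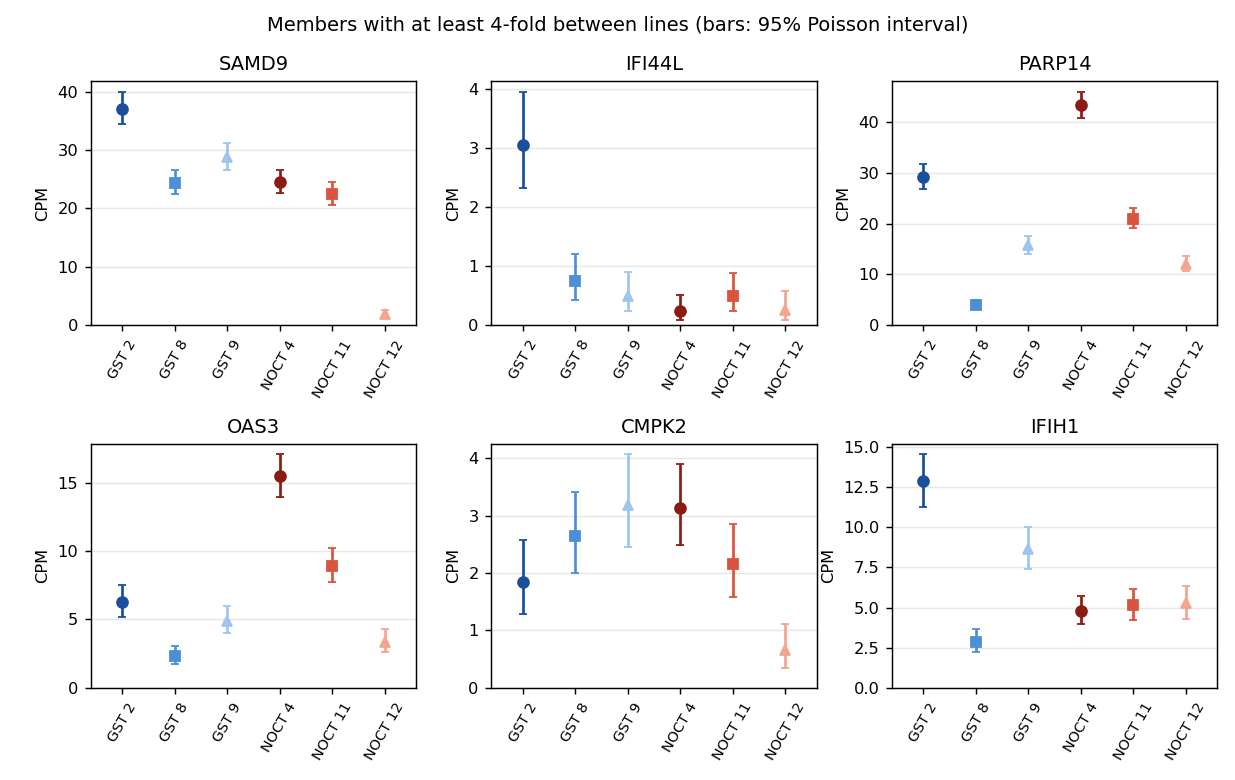
CPM of the 6 members with at least 4-fold between lines, in each line, with bars for the 95% exact Poisson interval of the count (counting error only). The line that stands apart changes from gene to gene. NOCT 12 is low for SAMD9 and CMPK2, and GST 8 for PARP14 and IFIH1. GST 2 is high for IFI44L and IFIH1, and NOCT 4 for PARP14 and OAS3.

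Different lines stood apart for different members. GST 2 was highest for SAMD9, IFI44L and IFIH1, NOCT 4 for PARP14 and OAS3, and GST 9 for CMPK2. The lowest line was NOCT 12 for SAMD9 and CMPK2, GST 8 for PARP14, OAS3 and IFIH1, and NOCT 4 for IFI44L. PARP14 and OAS3, on chromosomes 3 and 12, shared both their highest and their lowest line. DTX3L and IRF7 had the same highest and lowest lines, with smaller ratios of 1.42 and 2.04. Beside PARP14 and OAS3, the median of the neighbouring genes stayed between -0.06 and 0.05 for OAS3 and between -0.02 and 0.05 for PARP14 in every line, on the log2 scale.

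Around CMPK2 and IFIH1 other genes differed as well. In NOCT 12, where CMPK2 lay at -1.17 relative to the mean of the lines, its neighbours had a median of -0.38, and in NOCT 4, where CMPK2 lay at 0.49, they had a median of -0.32. SOX11, among the 2 nearest tested genes on one side, had 0.150 CPM in NOCT 12 and 122 to 327 CPM in the other 5 lines, and RNF144A, the nearest on the other side, had 10.8 CPM in NOCT 12 and 12.2 to 25.6 CPM in the other lines. ID2, the next tested gene on that side, was lowest not in NOCT 12, at 92.5 CPM, but in NOCT 4, at 21.3 CPM. With the CPM divided by the neighbours' level, the ratio of GST 9 to NOCT 12 for CMPK2 fell from 4.90 to 3.21, below 4-fold, and the highest line became NOCT 4, at 4.61 times NOCT 12. For IFIH1, the adjoining gene GCA was also highest in GST 2 at 11.9 CPM and lowest in GST 8 at 6.54 CPM, a smaller range than that of IFIH1. The genes around IFIH1 had a median of -0.37 in NOCT 4, where IFIH1 lay at -0.28, and of 0.06 to 0.11 in the other lines. The part of such regional differences in the clone ratios was tested only through the division by the neighbours' level, after which the ratio for IFIH1 was 4.38.

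The wider spread held for the members as a group. The median ratio of the highest to the lowest line was 2.08 for the tested members and 1.6 for all tested genes. Within the GST lines it was 1.52 against 1.27, and within the NOCT lines 1.74 against 1.35. At least 2-fold between lines was reached by 17 members (54.8%), against 31.0% of all tested genes. The members were also lower than most genes, with a median of 5.55 CPM against 15.5 CPM, and fewer counts widen such ratios, so how much of the difference comes with the lower level was not tested.

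**Figure D4:**
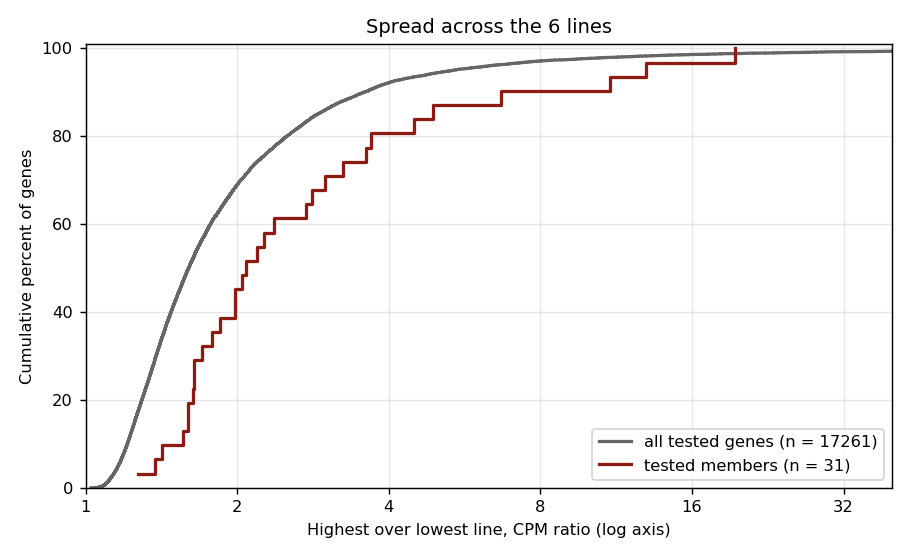
Cumulative percent of genes against the ratio of the highest to the lowest line in CPM (log axis), for the 31 tested members (red) and all 17261 tested genes (grey). The red curve lies to the right of the grey curve over most of the range, with medians of 2.08 and 1.6.

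A line was counted as standing alone for a gene when its 95% exact Poisson interval did not touch that of any other line. This held for 13 members (41.9%), against 26.1% of all tested genes. GST 2 stood alone as high for 6 members, which were IFIH1, UBE2L6, HERC5, HERC6, IFI44L and SAMD9, and for 2.94% of all tested genes. HERC5 and HERC6 lie next to each other. In GST 2 the median of the genes around each was 0.35 on the log2 scale, beside 0.47 for HERC5 and 0.55 for HERC6. NOCT 4 stood alone as high for OAS3 and PARP14 (4.68% of all tested genes) and as low for EIF2AK2, HERC5 and IFI6 (5.7%). NOCT 12 did so as high for ISG20 and IFI27 (3.6%) and as low for CMPK2 and SAMD9 (2.91%), and GST 8 as low for IFIH1 and PARP14 (1.87%). GST 9 and NOCT 11 stood alone for no member.

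By simple rank, GST 2 was the highest line for 10 of the 31 tested members (32.3%), against 17.5% of all tested genes. NOCT 4 was the lowest line for 12 (38.7%), against 21.1% of all tested genes, and GST 8 for 9 (29%), against 15.6%. No line was high for all members. The summed CPM of the members ranged from 448 in NOCT 12 to 559 in GST 2, with GST 9 next at 496. Their summed TPM ranged from 246 in NOCT 12 to 274 in GST 2.

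The genes upstream of the members were also read from the same fit. The 21 interferon ligand genes were nearly absent, with 20 silent and at most 4 counts in any line, for IFNE. The 6 receptor subunits were all tested. IFNAR1 averaged 46.2 ± 1.36 CPM in the GST lines and 53.3 ± 0.791 CPM in the NOCT lines (SD, n = 3), or 0.20 ± 0.09 (SE) as log2 fold change, with an edgeR adjusted p of 0.343. IFNAR2, its partner, averaged 5.34 ± 0.289 and 4.16 ± 0.806 CPM (edgeR adjusted p = 0.495). None of JAK1, JAK2, TYK2 and STAT3 had an unadjusted p under 0.05.

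Of 20 genes of nucleic acid sensing and its adaptors 15 were tested. An unadjusted p under 0.05 was reached by 2 (13.3%, against 13.9% of all tested genes), both higher in the NOCT lines. IRF3, the factor that starts interferon beta transcription, averaged 17.3 ± 2.76 CPM in the GST lines and 27.2 ± 6.06 CPM in the NOCT lines, without overlap (log2 fold change 0.66 ± 0.20, edgeR adjusted p = 0.222). IKBKE, a kinase that activates it, had 0.369, 0.649 and 0.687 CPM against 2.16, 0.538 and 2.96 CPM, so NOCT 11 lay among the GST lines. Of 16 inhibitors of signalling and enzymes that clear nucleic acid, 15 were tested and 2 (13.3%, against 13.9%) had an unadjusted p under 0.05. PTPN6, the phosphatase SHP-1, had 5.85, 4.73 and 5.30 CPM against 13.2, 9.27 and 10.3 CPM (log2 fold change 1.05 ± 0.20, edgeR adjusted p = 0.114). SAMHD1, a deoxynucleotide hydrolase, averaged 44.8 ± 3.12 and 54.1 ± 6.39 CPM (edgeR adjusted p = 0.354).

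A further 51 genes known to be induced by interferon gave 37 tested genes. Of these 7 (18.9%, against 13.9% of all tested genes) had an unadjusted p under 0.05. The mean in the NOCT lines was higher for 4 of the 7 and lower for 3. SP100, a component of nuclear bodies, had 2.64, 1.86 and 2.11 CPM in the GST lines and 10.7, 9.27 and 5.77 CPM in the NOCT lines (log2 fold change 1.97 ± 0.29, edgeR adjusted p = 0.0656). EPSTI1 had 0.896, 0.371 and 0.245 CPM against 4.47, 1.84 and 1.25 CPM, and APOBEC3B, a cytidine deaminase, had 0.580, 1.39 and 1.28 CPM against 4.67, 5.42 and 1.70 CPM. Neither pair of groups overlapped, and both genes had an edgeR adjusted p of 0.194. All pathway lists together held 118 genes, of which 77 were tested. At an adjusted p under 0.05 edgeR called none of them, and 12 (15.6%) were under 0.05 before adjustment, beside 13.9% of all tested genes. DESeq2 gave an adjusted p to 71 of them and called 4 (5.63%, against 3.41% of all genes with one), SP100, PTPN6, APOBEC3B and EPSTI1, with DESeq2 adjusted p of 3.17e-07, 0.000787, 0.0173 and 0.0186, all higher in the NOCT lines.

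**Figure D5:**
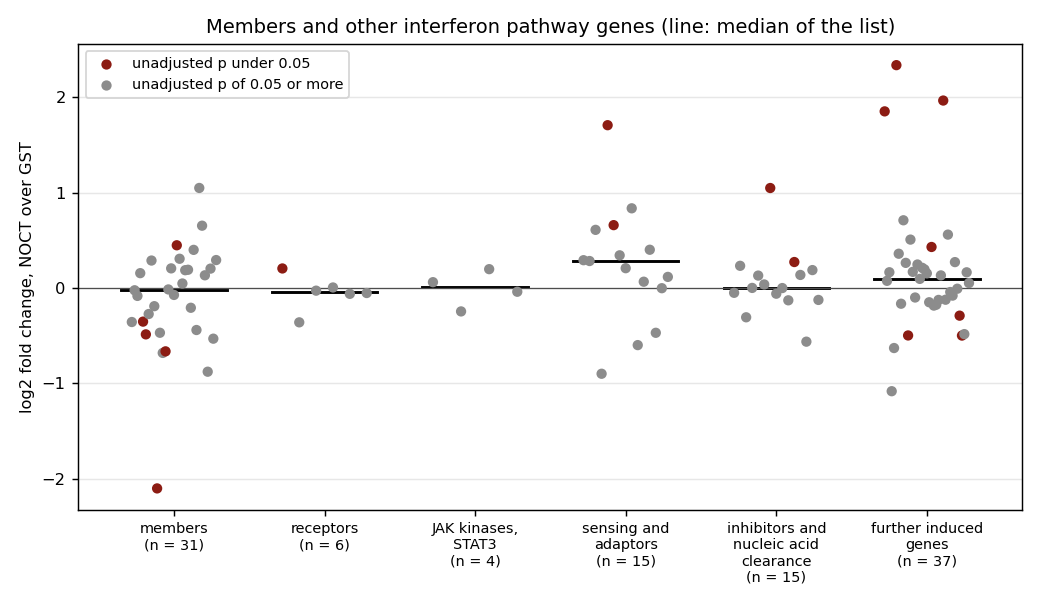
Log2 fold change, NOCT over GST, of each tested gene in the member list and in the pathway lists, with a black line at the median of each list. The members centre on -0.02, and the largest values belong to EPSTI1, SP100 and APOBEC3B among the further induced genes.

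The authors' deposited table, a DESeq2 comparison with shrunken fold changes, held 39 of the 42 members. Of these 31 had an adjusted p in the authors' deposited table and none was under 0.05, against 2.87% of all rows with one. Of the 39, 6 had an unadjusted p under 0.05 there, among them SAMD9L, which was too low to be tested here. The share of all rows under that unadjusted p was not counted. The smallest adjusted p was 0.0844 for HERC5, whose log2 fold change in the authors' deposited table was -0.44. IFI44L followed with an adjusted p of 0.103 and a log2 fold change of -0.58 in the authors' deposited table, against -2.10 in the unshrunken edgeR fit. All 31 members found both in the authors' deposited table and in the edgeR fit had the same sign in both, as 2 analyses of the same libraries.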

How the data were processed

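Per the submitters' processing notes, reads were handled with cutadapt 1.8.1, Trimmomatic 0.33, STAR 2.5.2b, HTSeq 0.6.1p1 and DESeq2 1.16.1 on GRCh38, with no role or order given. Per the labels' protocols, ribosomal RNA was depleted, libraries kept strand and were read for 50 bases. The deposited counts are raw reads per gene. Rows that name no feature (26.5% to 30.6% of reads without a feature) were left out. The authors' deposited TPM values were proportional to the counts of each line in 100% of genes. The authors' deposited DESeq2 table gives a mean normalised signal, log2 fold changes with standard errors, a test score, and p-values with adjusted p-values.

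Counts were compared with edgeR 4.0.16 (R 4.3.3): filterByExpr, TMM factors, quasi-likelihood test, 3 lines against 3, Benjamini-Hochberg adjustment over 17261 genes. DESeq2 1.42.0 and limma 3.58.1 were alternatives, with other scalings, filters, an offset for neighbouring genes, and each line left out. The fit was tested on simulated counts with larger changes than every tested member but IFI44L had, so this does not bear on detecting changes of the members' size. Reads inside opposite-strand exons were kept apart: 151 of 747 genes wholly inside opposite-strand exons had at least 10 counts, against 4 of 796 inside same-strand exons. Gene positions come from GENCODE 29 and promoters from RefSeq (GRCh38.p14).

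The members and lists were chosen with earlier results of these data known. Values in every line are given for tested members with a mean of at least 1 CPM, members with at least 4-fold between lines and 20 counts in the highest, and members with an unadjusted p under 0.05. Of each pathway list, at most the 3 genes with the smallest unadjusted p under 0.05 are named. Other genes named (low members, IFNAR2, marker genes, neighbouring genes) were picked after their values were seen. An item of the signalling list is not reported here. There were 0 unused per-sample columns.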

Additional observations from a re-analysis of the deposited data

How the results depend on the processing

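No paired analysis was possible because the 2 groups share no replicate number. The count of all genes with an adjusted p under 0.05 was 10 in edgeR with TMM factors, 508 in DESeq2, 16 in limma voom, 34 with total gene counts and no factors, 22 with spike-in totals, 888 with no filter beyond 1 count and 35 with the offset for neighbouring genes. Leaving out 1 line gave 0 (without GST 9) to 970 (without NOCT 12). The members called were 0 under each of these except with no filter, where there were 2 (HERC5, adjusted p = 0.0417, and IFI44L, adjusted p = 0.0177), and without NOCT 12, where there was 1 (IFIT1). Over the lines left out, members called ran from 0 to 1. Members with an unadjusted p under 0.05 were 10 with no filter, where 42 were fitted (23.8%, against 10.7% of all genes). They ran from 1 (without GST 2) to 7 (without NOCT 12) over the lines left out. Spike-in totals moved the median of all genes to 0.15 and that of the members to 0.12, and leaving out a line put the members' median between -0.19 (without NOCT 12) and 0.0112 (without GST 2). Silent members numbered 0 when 0 counts were required in every line and 9 with up to 10 counts. The 6 clone ratios stayed within counting error with TPM and spike-in totals, which each rescale a whole line by 1 factor and so test little here. They also stayed within it between the same lines with the neighbours' level. For CMPK2 the last gave 3.21 for GST 9 over NOCT 12, below 4-fold but inside its interval of 2.67 to 9.68. The highest line of CMPK2 then became NOCT 4, at 4.61 times NOCT 12. Leaving out each line, chosen after seeing the data, gave ratios of 2.69 to 4.49 for IFIH1, 3.84 to 6.69 for OAS3, 1.72 to 4.9 for CMPK2, 3.62 to 11 for PARP14, 3.14 to 13 for IFI44L and 1.66 to 19.5 for SAMD9.

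Of 479 log2 fold changes of single members under alternatives, 452 kept their direction and 27 did not. DDX58 was 0.0172 with total gene counts, 0.12 with spike-in totals, 0.0413 on log2(TPM + 1) and 0.0441 on log2(TPM + 0.1). IFIT2 was 0.0302, 0.13 and 0.0176 under the first 3, and IFIT5 was 0.0758 with spike-in totals and 0.0131 and 0.0135 on the 2 TPM scales. CMPK2 was 0.0256 with the neighbour offset. The cause was not tested. Over the lines left out, the values ran from -0.19 to 0.14 for DDX58, from -0.12 to 0.35 for IRF1, from -0.0599 to 0.39 for IRF7, from -0.0159 to 0.42 for IRF9, from -0.42 to 0.34 for IFIT2, from -0.21 to 0.45 for IFIT3, from -0.40 to 0.72 for ISG20, from -0.86 to 0.0451 for CMPK2, from -0.87 to 0.19 for UBE2L6, from -0.0332 to 0.33 for PARP9 and from -0.19 to 0.57 for IFI27.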
